A study of Mus musculus with 16 samples.

Results

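The genes described here are 7 MHC class II genes, H2-Aa, H2-Ab1, H2-Eb1, Cd74, Ciita, H2-DMa and H2-DMb1, measured by RNA-Seq in GFP+ cells of the mouse small intestine. They were taken by symbol from the tables of normalized counts, where they are 7 of 48440 genes, and each symbol matched 1 gene in each table. The study asked how vertical sleeve gastrectomy (VSG), a bariatric operation that removes most of the stomach along its greater curvature, alters gene expression in intestinal stem cells (ISCs). Each library is 1 intestinal segment of 1 mouse, and 7 mice gave 16 libraries, from the duodenum (4 VSG and 2 sham), the jejunum (4 VSG and 2 sham) and the ileum (2 VSG and 2 sham). All mice, sham included, were female Lgr5eGFP mice that carried EGFP in the Lgr5 gene, were made obese on a high-fat diet before surgery, and were killed 4 weeks after it, following an overnight fast and a liquid meal. Sham mice had gentle pressure applied to the stomach with forceps. GFP marks Lgr5+ stem cells together with early progenitors, so a library is a sorted fraction and not a pure stem cell. Cells positive for CD45 (leukocytes), CD31 (endothelium), annexin V or Sytox Blue were removed before the GFP sort. The numbers of VSG and sham replicates name different mice, and a number names the same mouse in each segment.

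MHC class II molecules are pairs of an alpha and a beta chain that show peptides from internalised proteins to CD4+ T cells. H2-Aa and H2-Ab1 encode the alpha and beta chains of I-A, and H2-Eb1 encodes the beta chain of I-E. Cd74, the invariant chain, holds the groove of newly made molecules closed and guides them to endosomes, where H2-DM, a pair of H2-DMa and H2-DMb1, exchanges the last invariant chain fragment for peptide. Ciita, the class II transactivator, does not bind DNA itself and is recruited to the promoters of all these genes by a complex of RFX, NF-Y and CREB. Dendritic cells, macrophages and B cells express class II genes constitutively. Epithelial cells, crypt cells among them, express them when interferon gamma reaches them.

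The deposited values are counts normalized within each segment, and 1 read was worth 0.586 to 2.07 normalized counts, which corresponds to 10.9 to 63.6 M reads per library. The epithelial gene Epcam was present at 29550.4 to 68770.5 normalized counts in all 16 libraries. Lgr5, the gene that drives GFP, was listed at 0 in the jejunal and the ileal library of sham replicate 1, where the label Lgr5+ has no support from its own marker, and lay between 152 and 6565 elsewhere. Transcripts of differentiated cells were abundant in all libraries, for example the enterocyte peptidase Anpep at 34538.9 to 396095 normalized counts. The cells are therefore called GFP+ cells below.

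The 5 members on chromosome 17 lie in the class II region within 34119541 to 34316674 (GRCm38, GENCODE M21). In order they are H2-DMa (34119541 to 34139101, plus strand), H2-DMb1 (34153072 to 34160230, plus), H2-Ab1 (34257689 to 34269419, plus), H2-Aa (34282744 to 34287823, minus) and H2-Eb1 (34305867 to 34316674, plus). Class II promoters are known for an X box, the site of RFX, followed by a Y box that holds the NF-Y letters CCAAT or, on the other strand, ATTGG. RefSeq promoters of 300 bases on GRCm38.p6, from 250 bases before to 50 after the start, were matched by symbol for 4 members, H2-Aa, H2-DMa, H2-DMb1 and H2-Eb1. They were searched on both strands for CCAAT and for the X box letters CCNAGNNAC, 1 further base and GATG. The stretches below, 5′ to 3′ along the strand of the gene, are shown because they hold these letters in the genes whose counts are compared in the next paragraphs, with the matching letters in capitals. Capitals mark the X box letters, CCAAT or ATTGG, and the longer run CTGATTGG, which contains ATTGG and was chosen after the promoters were read.
H2-Aa, chr17:34287847-34287894, minus strand: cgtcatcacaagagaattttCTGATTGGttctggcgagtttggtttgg
H2-DMb1, chr17:34153073-34153154, plus strand: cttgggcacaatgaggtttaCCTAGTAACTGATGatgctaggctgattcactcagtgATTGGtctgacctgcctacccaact
H2-Eb1, chr17:34305752-34305856, plus strand: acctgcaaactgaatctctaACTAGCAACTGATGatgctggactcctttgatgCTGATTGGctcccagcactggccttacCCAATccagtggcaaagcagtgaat

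The 4 member genes with an entry had 5 promoters. CCAAT on either strand occurred in 4 of these 5, with at least 1 for each gene, and in 37.4% of the 32851 promoters in the table. The X box letters occurred without a mismatch in 1 of the 4 genes, H2-DMb1, at 98 to 85 bases before the start, and in 0.0609% of all promoters. With 1 mismatch allowed they were also in H2-Eb1, at 95 to 82 bases before the start, and in 1.97% of all promoters. CTGATTGG was in H2-Aa (51 to 44 bases before the start) and H2-Eb1 (62 to 55), and in 4.10% of all promoters. In H2-DMb1 and H2-Eb1 the X box letters are followed downstream by ATTGG within the stretch printed. A match describes letters in this window, and binding was not measured.

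The 7 genes stood at very different levels. Per kb of the longest coding transcript, Cd74 had the highest mean in each segment, with 22388 (duodenum), 25278 (jejunum) and 29825 (ileum) normalized counts per kb. Its ranks in these segments were 157, 97 and 32 among 21653 genes with a length. H2-Ab1 followed at 7128, 9079 and 10729 normalized counts per kb, then H2-Aa at 5212, 6706 and 9035, and H2-Eb1 at 4034, 4289 and 4801. Both subunits of H2-DM were lower, H2-DMb1 at 1257, 1342 and 1655 and H2-DMa at 1021, 825 and 1111. Ciita had the lowest level of the 7, at 192, 167 and 202 normalized counts per kb. For scale, the level of Epcam was 31017, 24159 and 19428 normalized counts per kb, and that of Lgr5 was 503, 186 and 66.0. Epcam also rose in rank, with 118, 103 and 52, although its level fell, so a rise in rank is not particular to Cd74. The order of the class II means was the same in all 3 segments.

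The chains kept a narrow proportion to each other across libraries that differed many-fold in level. The ratio per kb of Cd74 to H2-Aa ranged from 2.64 to 5.72 over the 16 libraries, with a median of 3.86. For the I-A chains, H2-Aa to H2-Ab1, the range was 0.473 to 1.36 with a median of 0.677, and for H2-Eb1 to H2-Ab1 it was 0.316 to 0.986 with a median of 0.480. The ratio of H2-DMa to H2-DMb1 was less steady, from 0.221 to 4.09 with a median of 0.637, and its highest value was in the duodenal library of sham replicate 2. Over the 16 libraries, with each gene centred on its mean in each segment, log2 levels of the 21 pairs of members had Pearson r of 0.73 to 0.96, median 0.88. Without the duodenal and jejunal libraries of sham replicate 2 the range was 0.35 to 0.94, median 0.75. These points share mice, libraries and the normalization of each table, and the r values are descriptions.

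In the duodenum, class II transcripts were high in all 4 VSG libraries and in 1 of the 2 sham libraries, and low in the other sham library. After VSG, H2-Aa stood at 2768, 5347, 7695 and 12068 normalized counts (replicates 1 to 4), and after sham at 6929 and 469 (replicates 1 and 2). Sham replicate 1 thus lies inside the VSG range and sham replicate 2 far under it, so the groups overlap. H2-Ab1 was counted at 4578, 11278, 12415 and 13341 after VSG and at 9162 and 1065 after sham. H2-Eb1 had 6216, 7007, 9121 and 10917 after VSG against 6231 and 908 after sham. The same 2 sham libraries split in the same way, and for H2-Eb1 the overlap was between VSG replicate 1 and sham replicate 1, which are nearly equal.

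The invariant chain had the widest duodenal range in absolute counts. Cd74 (chromosome 18, 60803848 to 60812652, plus strand) reached 19780.2, 37682, 42907 and 57129.6 normalized counts after VSG, and 30136 and 1765 after sham. The groups overlap through sham replicate 1, and sham replicate 2 was lower than the next lowest library by 11.2-fold. H2-DMa, a subunit of the peptide exchange factor, came to 1372, 2737, 2542 and 3952 normalized counts after VSG and to 1344 and 331 after sham. This is the one member whose duodenal groups do not overlap, by the margin between VSG replicate 1 and sham replicate 1; over all genes tested there, 6.44% had each VSG library above both sham libraries. H2-DMb1, its partner, was at 1600.0, 1703, 2983 and 2494 after VSG, at 1751 in sham replicate 1 and at 56.7 in sham replicate 2, which was 28.2-fold under the next lowest library.

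Ciita (chromosome 16, 10480059 to 10528418, plus strand), the switch of the pathway, showed the same split. Its duodenal values were 1149, 1431, 1137 and 1669 normalized counts after VSG and 1371 and 161 after sham. Sham replicate 1 lies among the VSG libraries, and sham replicate 2 was lower than the next lowest by 7.04-fold. For 7 of 7 members the lowest of the 6 duodenal libraries was sham replicate 2, which was lowest for 14.9% of all genes tested in the duodenum. The median of the other 5 libraries was above it by 7.69-fold (H2-DMa) to 30.9-fold (H2-DMb1).

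**Figure D1:**
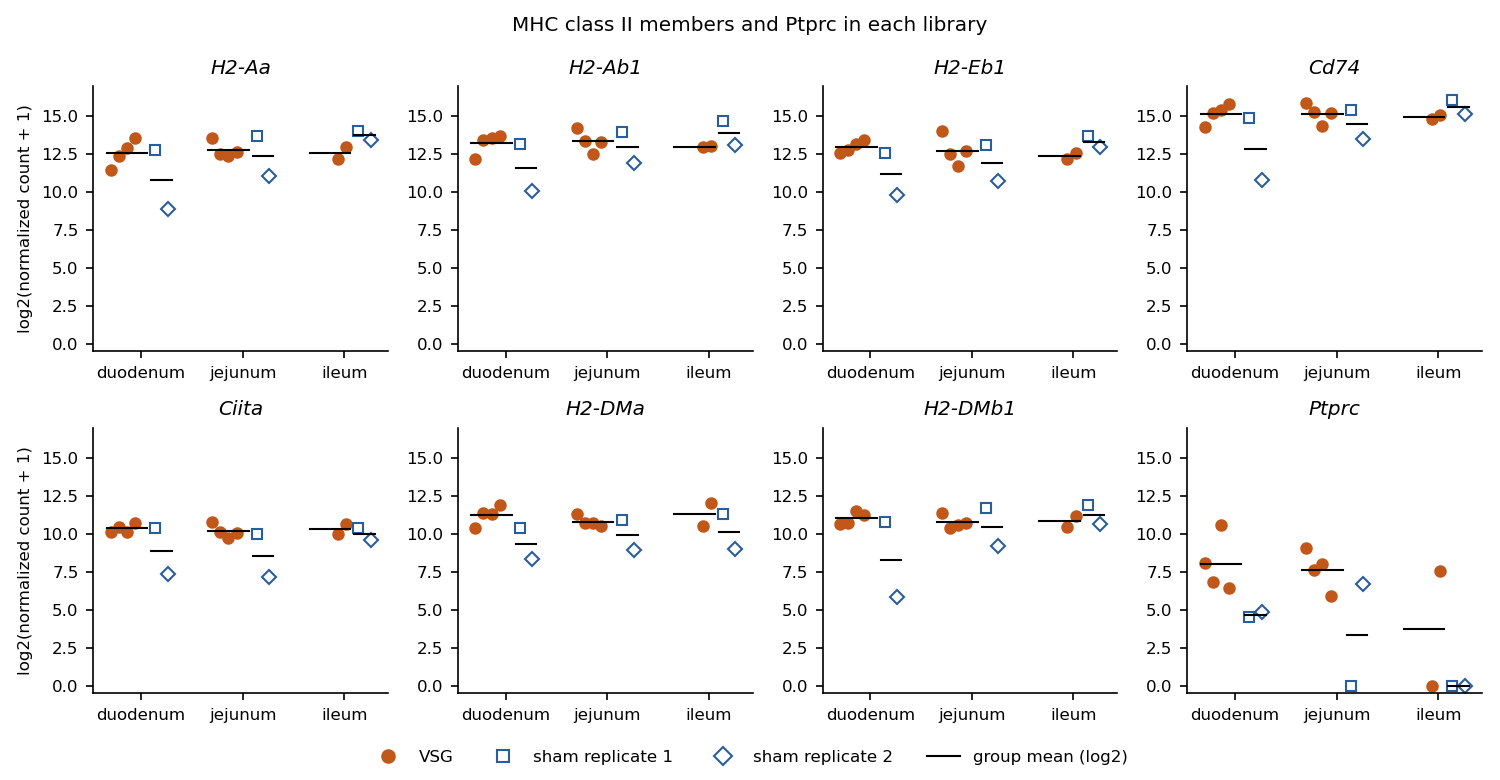
Levels of the 7 MHC class II genes and Ptprc, as log2(normalized count + 1) on the vertical axis, in each library by segment, with filled circles for VSG, open squares for sham replicate 1, open diamonds for sham replicate 2 and a line for the group mean. Sham replicate 2 is the lowest point for all 7 members in the duodenum and jejunum, for example at 1765 normalized counts of Cd74 in the duodenum against 19780.2 to 57129.6 after VSG.

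With the libraries compared by limma, 0 of 7 members were called in the duodenum when a call asked for an unadjusted p under 0.05 together with a Benjamini-Hochberg p under 0.2, a change of over 0.5 on the log2 scale and a mean over 50. Over all genes there, 0.0237% (4 of 16867) were called. At an unadjusted p under 0.05, 4 members were higher after VSG, H2-Eb1, Cd74, H2-DMa and H2-DMb1, where 2.79% of all genes tested (470) were higher. That count was 1 in limma without trend, 0 with a replicate block and 6 with each library scaled to the same total. The largest fitted difference was that of H2-DMb1, a log2 fold change of 2.74 (SE 1.06, 95% interval 0.36 to 5.12, limma Benjamini-Hochberg adjusted p = 0.687). Cd74 differed by 2.33 on the log2 scale (SE 0.90, 95% interval 0.31 to 4.36, limma adjusted p = 0.684), and H2-DMa by 1.89 (SE 0.58, interval 0.59 to 3.20, limma adjusted p = 0.555). For H2-Eb1 it was 1.77 (interval 0.38 to 3.16), for H2-Aa 1.76 (interval -0.31 to 3.82), for H2-Ab1 1.62 (interval -0.048 to 3.29) and for Ciita 1.49 (interval -0.13 to 3.11). The median log2 fold change of the 7 was 1.77, against 0.0086 for all genes tested. Exact permutation tests, two-sided, gave p = 0.133 for H2-DMa, the smallest that 4 against 2 libraries allow, and 0.267 to 0.400 for the others.

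These duodenal differences turn on which sham library is used. Without sham replicate 2 the median log2 fold change of the 7 members was 0.28, with H2-Aa at -0.19 and Ciita at -0.045. Without sham replicate 1 it was 3.17, and 4 members passed the thresholds, H2-Eb1, Cd74, Ciita and H2-DMb1, with limma adjusted p of 0.0427, 0.0846, 0.0416 and 0.0416. In that fit 1.54% of all genes (259 of 16821) were called. A lone sham library was then assumed to vary like the VSG libraries. In bulk libraries such as these, fewer cells that express a gene and less of its RNA per cell cannot be told apart.

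In the jejunum, the same sham mouse again had the lowest class II level, while the other sham mouse was as high as the VSG mice. For H2-Aa the VSG mice had 12154, 5905, 5276 and 6448 normalized counts, and sham replicates 1 and 2 had 13444 and 2161. H2-Ab1 came to 19085, 10586, 5943 and 10336 after VSG and 16177 and 3897 after sham, and H2-Eb1 to 16387, 5856, 3335 and 6646 against 9027 and 1696. For all of these chains sham replicate 1 lies within or above the VSG range and sham replicate 2 under it. VSG replicate 1 was the highest VSG library for each of them.

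The processing genes followed the chains in the jejunum. Jejunal Cd74 reached 59643, 39058, 20851 and 38404 normalized counts after VSG and 44401 and 11491 after sham. H2-DMa was at 2598, 1702, 1675 and 1484 after VSG and 1970.2 and 489.9 after sham, and H2-DMb1 at 2729.7, 1384, 1553 and 1710.0 against 3338 and 590.1. The transactivator Ciita stood at 1754, 1151, 874 and 1069 after VSG and at 1039.8 and 141 after sham, the largest jejunal gap to sham replicate 2, 6.20-fold under the next lowest library. Sham replicate 2 was the lowest jejunal library for 7 of 7 members and for 9.11% of all genes tested. Its gap to the next lowest library was 1.52-fold for H2-Ab1 and 3.03-fold or less for the 6 members other than Ciita, against 4.06-fold to 28.2-fold for the 7 members in the duodenum.

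In the jejunum 0 of 7 members were called by limma, against 0.0126% of all genes (2 of 15857), and 0 members had an unadjusted p under 0.05, against 6.04% of all genes in either direction. Ciita had the largest difference, a log2 fold change of 1.61 (SE 0.76, 95% interval -0.086 to 3.30, limma adjusted p = 0.760). Cd74 was at 0.71 (interval -0.57 to 1.99) and H2-Aa at 0.38 (interval -1.03 to 1.80), and limma adjusted p for the 7 ranged from 0.760 to 0.880. The 95% intervals of all 7 include 0 and reach at least to 1.71 on the log2 scale, so these libraries do not show that the groups are alike. For 0 of 7 members were the groups apart, where 12.8% of all genes tested did not overlap. Without sham replicate 2 the median log2 fold change of the members was -0.41 in place of 0.71, with 1 member, Ciita, above 0, and without sham replicate 1 it was 1.70. Over all genes tested the median was 0.11.

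In the ileum, where each group holds 2 libraries, the chains and Cd74 were lower in the VSG libraries. H2-Aa was at 4582 and 7964 normalized counts in VSG replicates 4 and 5 and at 17072 and 11149 in sham replicates 1 and 2. H2-Ab1 had 8130.4 and 8319 against 26731 and 8833, and H2-Eb1 4729 and 6059.7 against 13229 and 8033. Cd74 stood at 28399 and 34328 against 68512 and 36976. For these 4 genes both VSG libraries lie under both sham libraries, which was so for 11.6% of all genes tested in the ileum, and for H2-Ab1 and Cd74 the nearer sham library is close to the VSG libraries. A list of 7 stem cell genes also differed here, with a median log2 fold change of 3.01 against 0.24 for all genes tested. For 5 of them both VSG libraries lay above both sham libraries (17% of all genes tested), and for 1 both lay below. Olfm4, of that list, stood at 7641 and 5352 after VSG and at 795 and 2647 after sham. The part of cell make-up in the ileal class II differences was not tested.

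The other 3 members overlapped in the ileum. Ciita was at 1045 and 1630.3 after VSG and 1372 and 795 after sham. H2-DMa had 1506 and 4334 against 2555 and 515, and H2-DMb1 had 1425 and 2386 against 3851 and 1633. Sham replicate 2 was the lowest ileal library for 2 of 7 members, Ciita and H2-DMa, and for 20.2% of all genes tested, so its low position in the other segments did not extend to the chains here.

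In the ileum limma called 0 of 7 members and 0% of all genes (0 of 13853), while 455 of all genes had an unadjusted p under 0.05. At that unadjusted p, 1 member was lower after VSG, H2-Aa, where 1.19% of all genes tested (165) were lower. The log2 fold change of H2-Aa was -1.19 (SE 0.44, 95% interval -2.29 to -0.093, limma adjusted p = 0.736). For the others it was -0.95 for H2-Eb1 (interval -1.98 to 0.087), -0.90 for H2-Ab1 (interval -2.32 to 0.51), -0.69 for Cd74 (interval -1.61 to 0.23), -0.44 for H2-DMb1, 0.32 for Ciita and 1.15 for H2-DMa (interval -1.29 to 3.60). The members' median was -0.69 and that of all genes tested 0.24. An exact permutation test over 2 against 2 libraries cannot go below p = 0.333, two-sided, which is its value for H2-Aa, H2-Ab1, H2-Eb1 and Cd74. Leaving out sham replicate 1, whose ileal library has Lgr5 at 0, left a median of -0.10, and leaving out sham replicate 2 gave -1.13.

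The duodenal and jejunal differences were compared in the mice with both segments, as each mouse's jejunal minus duodenal log2 level. No member was called (0 of 7, with 0% of all genes called, 0 of 14718, and 604 at an unadjusted p under 0.05). H2-DMb1 had an unadjusted p under 0.05, with a difference between segments of -2.40 on the log2 scale (95% interval -4.20 to -0.60, limma adjusted p = 0.948), and 1.35% of all genes tested (199) had such a p in that direction. For Cd74 the difference was -1.62 (interval -3.45 to 0.20) and for Ciita 0.12. The members' median was -1.21, against 0.10 for all genes tested.

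**Figure D2:**
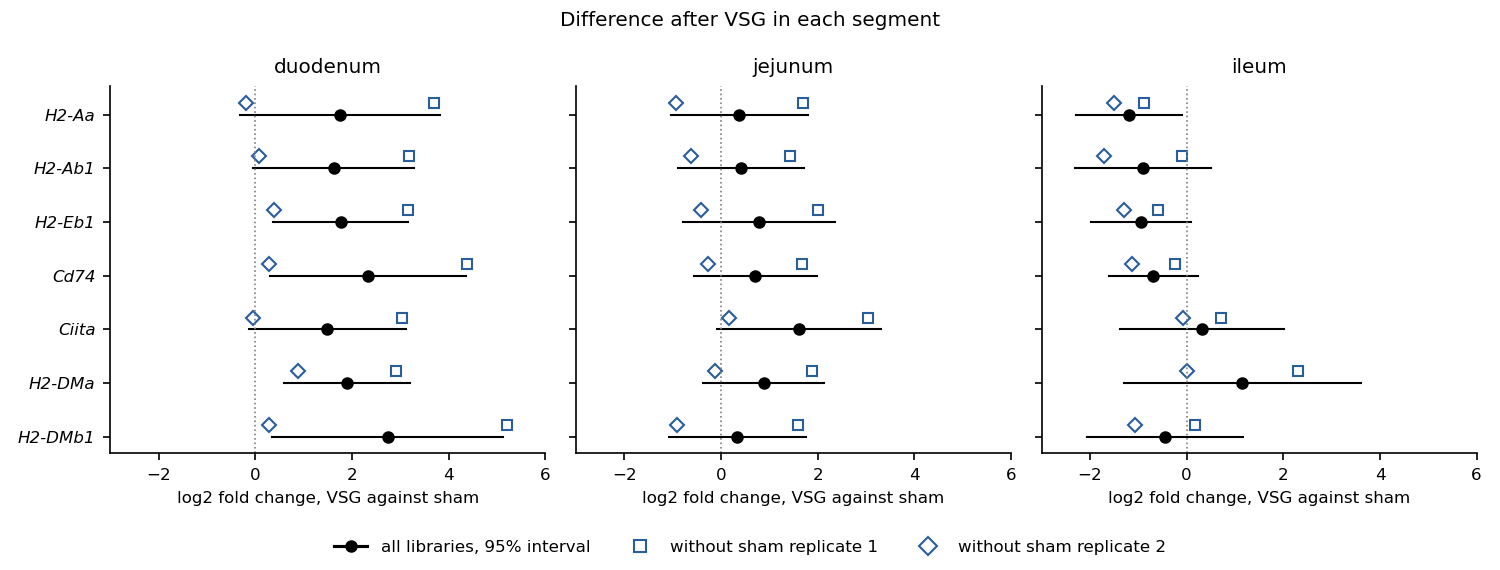
Log2 fold change of VSG against sham (horizontal axis) for each MHC class II gene and segment, from limma, with 95% intervals as bars, and open symbols for the value without sham replicate 1 (squares) or without sham replicate 2 (diamonds). Duodenal values spread from a median of 0.28 without sham replicate 2 to 3.17 without sham replicate 1, and in the jejunum the median changes sign, from 1.70 to -0.41.

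Along the intestine, each of the 7 members had its highest mean in the ileum. The 3 tables were normalized separately, so levels are given as deposited and as CPM, the normalized counts rescaled so that each library sums to the same total, and no test was made between segments. As deposited, Cd74 had means of 31566.5 ± 19228 (SD, n = 6) for duodenum, 35641 ± 17171 (n = 6) for jejunum and 42054 ± 17999.7 (n = 4) for ileum. H2-Aa had 5879 ± 4048, 7565 ± 4337 and 10192 ± 5313. For H2-Ab1, H2-Eb1 and H2-DMb1 the order was also duodenum, jejunum, ileum, while for Ciita (means 1153, 1005 and 1211) and H2-DMa (2046, 1653 and 2227) the jejunum was lowest. For 0 of 7 members did neighbouring segments differ by more than the larger of their SDs.

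In CPM, the gradient was steeper. From duodenum through jejunum to ileum the mean of Cd74 was 661, 990.1 and 1809, that of H2-Aa 123, 205 and 437, and that of Ciita 24.0, 28.2 and 53.0 CPM. Between duodenum and jejunum 0 of 7 members differed by more than the larger SD, and between jejunum and ileum 4 did, H2-Aa, Cd74, Ciita and H2-DMb1. Within mice, in CPM, all 7 members were higher in the ileum than in the jejunum in 3 of 3 mice. The share of all genes that were higher in this way was not counted, so the rise cannot be called particular to class II. As deposited, the ileum was higher in 3 of 3 mice for H2-DMa alone, since VSG replicate 4 had lower ileal than jejunal counts of the other 6. Against the duodenum, in CPM, 4 members (H2-Ab1, Cd74, Ciita and H2-DMb1) were higher in the ileum in 3 of 3 mice and the others in 2 of 3. From duodenum to jejunum no member moved the same way in all 6 mice on either scale. Without sham replicate 1, the mouse with Lgr5 at 0 in jejunum and ileum, the ileal mean was the highest for 7 of 7 members in CPM and for 3 of 7 as deposited. The ileal group has 2 sham libraries of 4 and the other segments 2 of 6, and ileal libraries came from fewer mice.

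**Figure D3:**
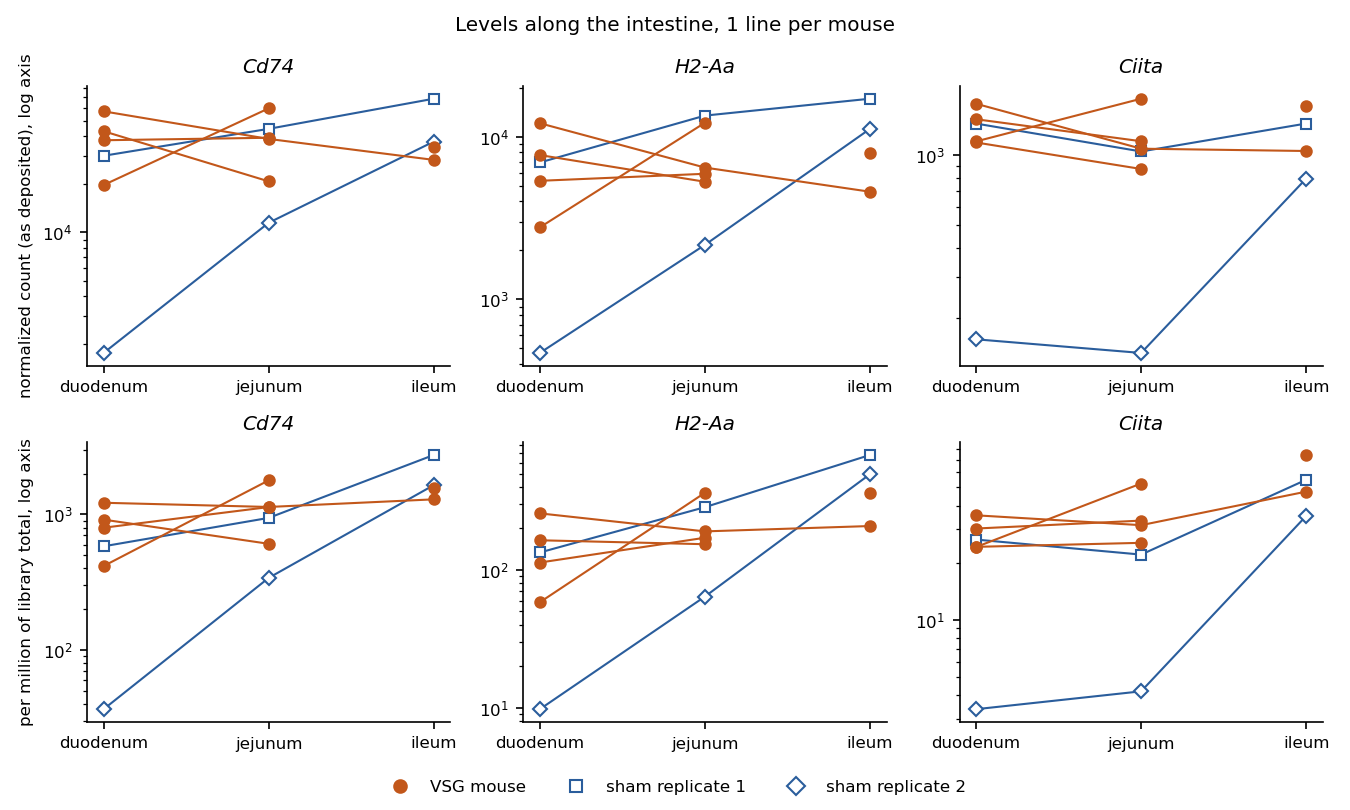
Levels of Cd74, H2-Aa and Ciita along duodenum, jejunum and ileum, with 1 line per mouse, as deposited normalized counts (upper) and in CPM (lower), on log axes. In CPM, the 3 mice with both segments rise from jejunum to ileum in all 3 panels, while as deposited VSG replicate 4 goes down. CPM raises ileal values of all genes relative to the other segments, since deposited ileal totals were the lowest.

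Ptprc, which encodes CD45, was used as a check for leukocytes in the same libraries. Duodenal Ptprc stood at 276, 114, 1534 and 87 normalized counts after VSG and at 22 and 28.1 after sham, so all VSG libraries lie above both sham libraries (exact permutation p = 0.133, two-sided, the smallest possible). The log2 fold change was 3.31 (SE 1.33, 95% interval 0.31 to 6.30, limma adjusted p = 0.732). In the jejunum Ptprc was at 538, 196, 259.6 and 60.3 after VSG and 0 and 106 after sham. In the ileum it was listed at 0 and 185 after VSG and at 0 in both sham libraries, so no fold is given.

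Ptprc and class II levels went together in some libraries and apart in others. Jejunal VSG replicate 1 had the highest jejunal values of both, 538 normalized counts of Ptprc and 59643 of Cd74. Duodenal sham replicate 1 had 30136 normalized counts of Cd74 with 22 of Ptprc, and sham replicate 2 had 1765 of Cd74 with 28.1 of Ptprc. Ileal sham replicate 1 held the highest Cd74 of the 16 libraries, 68512, with Ptprc at 0. The ratio of Cd74 to Ptprc ran from 28.0 to 1368 in the duodenum and from 80.3 to 637 in the 5 jejunal libraries with Ptprc above 0. Mean Ptprc was 343, 193 and 46.3 normalized counts in duodenum, jejunum and ileum, and the medians were 100, 151 and 0. The means ran in the opposite order to Cd74 and the medians did not. The duodenal mean includes VSG replicate 3 at 1534, and the 3 tables were normalized separately. Over the 16 libraries centred within segments, Ptprc had r = 0.041 with the mean log2 level of H2-Aa, H2-Ab1, H2-Eb1 and Cd74, as a description. Ptprc was at 0 in 4 of these libraries, which limits what this r can show.

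Of 33 genes in 4 lists of leukocyte, B cell, dendritic cell and macrophage, and T cell markers, 10 were at 0 in all 16 libraries. Among these were Cd79a (B cells), Itgax and Cd209a (dendritic cells), Cd4 and Cd8a (T cells), and Cd53, Coro1a, Nkg7 and Tyrobp. Another 13 reached 50 normalized counts in at least 1 library. They were Cd79b and Ms4a1 (B cell list), Cd3g and Gzmb (T cell list), and Ptprc, Lcp1 and Cd52 (pan leukocyte list). The dendritic cell and macrophage list gave Itgam, Cd68, Lyz2, Csf1r, Fcer1g and Zbtb46. Sham replicate 2 was the lowest duodenal library for 2 of 6 tested dendritic cell and macrophage genes and 1 of 2 B cell genes. It was lowest for 0 of 2 pan leukocyte and 0 of 1 T cell genes, and for 14.9% of all genes tested. The summed dendritic cell and macrophage list, led by Itgam, was 515 to 3256 in the duodenum after VSG and 314 to 548 after sham. In the jejunum it was 797 to 1062 after VSG and 571 to 940.0 after sham. In the ileum it was 272 to 401 and 3.49 to 123. The lowest sum was that of sham replicate 2 in duodenum and jejunum and of sham replicate 1 in the ileum. The pan leukocyte list, which includes Lcp1 and Ptprc, ranged in the duodenum from 1069 to 1987 after VSG and from 818 to 2574 after sham, the highest being sham replicate 2, in the jejunum from 408 to 1005 and from 1749.7 to 2980.5, and in the ileum from 272 to 292 and from 0 to 386. The B cell list lay between 0 and 214 in all libraries and the T cell list between 0 and 165. Summed over the 7 members, class II counts were 4755 to 114351 in the duodenum and jejunum and 49816 to 133323 in the ileum. The part of leukocyte RNA in the class II differences was not tested.

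Markers of other cell types differed between the same libraries. The duodenal library of sham replicate 2 had the most Col1a2 and Col3a1, fibroblast collagens, at 862 and 654 normalized counts, and the stroma list summed to as much as 2261 in duodenal sham libraries and to 40.8 to 129 after VSG. The epithelium list summed to 383224 to 390582 in the duodenal sham libraries and to 296239 to 415563 after VSG. The stem cell list summed to 101449 to 108577 in the duodenal sham libraries, within the 78361 to 158280 of VSG. The sums of the enterocyte and tuft cell lists separated the duodenal groups in both sham libraries. The enterocyte list summed to 300734 to 597891 after VSG and to 678598 or more after sham, and 8 of its 8 genes had a log2 fold change under 0 (median -1.14), 5 of them at an unadjusted p under 0.05. Alpi, the brush border phosphatase, stood at 22048 to 40213 after VSG and at 76945 and 68658 in sham replicates 1 and 2. The tuft cell list summed to 9120 to 18596 after VSG and to 7009 and 3187 after sham, with 5 of 5 genes above 0 (median 1.88), 3 of them at such a p. Over all genes tested in the duodenum, 1057 of 16867 had such a p in either direction, and 2.79% had it with higher levels after VSG. Gene by gene, the groups were apart for 5 of 8 enterocyte genes and 2 of 5 tuft cell genes. Each VSG library lay above both sham libraries for 6.44% of all genes tested. Trpm5, a cation channel of tuft cells, stood at 4506 to 8880 after VSG and at 2605 and 1342 after sham. In the jejunum the sums of both lists overlapped between groups, at medians of -1.51 and 2.71. Unlike H2-Aa, Cd74 and Ciita, Alpi and Trpm5 set both duodenal sham libraries on the same side of VSG. Sham replicate 2 was the lowest duodenal library for 5 of 6 Paneth cell, 4 of 5 goblet cell and 4 of 5 enteroendocrine genes. It was lowest for 2 of 5 tuft cell and 0 of 8 enterocyte genes, against 14.9% of all genes tested. In the jejunum it was lowest for 0 genes of each of these lists, against 9.11% of all genes tested. The part of these cell types in the class II differences was not tested.

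Few counts were listed for the other class II genes. H2-Oa, H2-Ob and H2-Ea-ps were at 0 in all 16 libraries, and H2-Eb2 had at most 2.07 normalized counts. H2-Ea-ps is annotated as a polymorphic pseudogene, so its 0 is not read as silence of a working gene. Protein was not measured, and counts of H2-Eb1 do not show that I-E was made. H2-DMb2, a near-identical neighbour of H2-DMb1, was at 243 in duodenal VSG replicate 2 and at 6.21 or less elsewhere. Salmon divides reads that fit both genes, so the split between H2-DMb1 and H2-DMb2 is uncertain, and in that library H2-DMb1 was at 1703.

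Ciita acts through a complex already bound at the promoters. Of 7 genes of the transcription complex (Rfx5, Rfxap, Rfxank, Nfya, Nfyb, Nfyc and Creb1), 0 were called by limma in any segment. At an unadjusted p under 0.05 the duodenum and the jejunum had 0 such genes each and the ileum 1, Rfx5, where 2.09% of all genes tested were higher after VSG. From duodenum to ileum, the medians of their log2 fold changes were 0.22, 0.30 and 1.21. Rfx5, a subunit of the RFX complex, had duodenal values of 1787, 834, 1431 and 709 normalized counts after VSG against 713 and 796 after sham. In the ileum Rfx5 was at 170.5 and 469 after VSG and at 0 in both sham libraries, the ileal libraries with the most Cd74. Both ileal VSG libraries lay above both sham libraries for 4 of the 7 genes (Rfx5, Rfxank, Nfya and Nfyc), as for 17% of all genes tested. The 2 other RFX subunits overlapped between duodenal groups, Rfxank with 1705, 1200.4, 1360.1 and 1466 against 1409 and 1051, and Rfxap with 1224, 604, 438 and 1470.0 against 605 and 1055. Sham replicate 2 was the lowest library for 1 of the 7 genes in duodenum and jejunum each and for 0 in the ileum, against 14.9%, 9.11% and 20.2% of all genes tested, and with 7 genes these counts say little about the list.

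Ifng itself was at 0 in all libraries. CD45+ cells had been removed, so this does not show whether interferon gamma from other cells reached the GFP+ cells. The 8 other genes of the interferon gamma pathway had a median log2 fold change of 0.0083 in the duodenum (4 above 0 and 4 below), 0.50 in the jejunum and 0.13 in the ileum, and 0 were called. Irf1, a transcription factor induced by interferon that acts on the Ciita gene, had duodenal values of 10928, 10414, 9739 and 9778 normalized counts after VSG against 7245 and 5306 after sham. All VSG libraries lie above both sham libraries, and the log2 fold change was 0.72 (SE 0.21, 95% interval 0.24 to 1.20, limma adjusted p = 0.533). Irf1 was lowest in sham replicate 2 in each segment, with the median of the other libraries 1.84-fold, 1.64-fold and 3.90-fold higher in duodenum, jejunum and ileum. Of the 8 genes, sham replicate 2 was the lowest library for 2, 3 and 3 in these segments. The shares of all genes tested were 14.9%, 9.11% and 20.2%, so Irf1 does not stand for its list.

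The 10 genes of MHC class I presentation had smaller medians than the class II genes, with log2 fold changes of 0.21, 0.11 and -0.33 in duodenum, jejunum and ileum, and 0 were called. Sham replicate 2 was the lowest library for 5 of them in the duodenum and 4 in the jejunum, where it was lowest for 14.9% and 9.11% of all genes tested. Single genes of the list differed widely between libraries. Tap1, a subunit of the peptide transporter, stood in the jejunum at 5031, 6286, 2762 and 2643 normalized counts after VSG and at 1824 and 755 after sham, and in the ileum at 538 and 5919 against 3041 and 287. The jejunal groups of Tap1 do not overlap (log2 fold change 1.73, 95% interval 0.62 to 2.84, limma adjusted p = 0.760), and the ileal ones do. B2m, the light chain of class I molecules, had duodenal values of 15661, 33020.4, 27223 and 27344 normalized counts after VSG against 26769.6 and 22262 after sham. In the ileum B2m was at 17568 and 16609.9 after VSG against 47942 and 25626 after sham, a log2 fold change of -1.04 (95% interval -1.98 to -0.095), the same direction as the class II chains. The 6 genes of endosomal processing, which cut invariant chain and antigen, had medians of -0.19, -0.24 and -0.027. Ifi30, a thiol reductase of antigen processing, had its highest count, 8864, in duodenal sham replicate 2, where the class II genes were lowest. Of 5 costimulatory ligands, Cd40 and Cd86 were at 0 in all 16 libraries, Cd80 had 14.5 in 1 library, Cd274 reached 423, and Icosl reached 740.2.

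**Figure D4:**
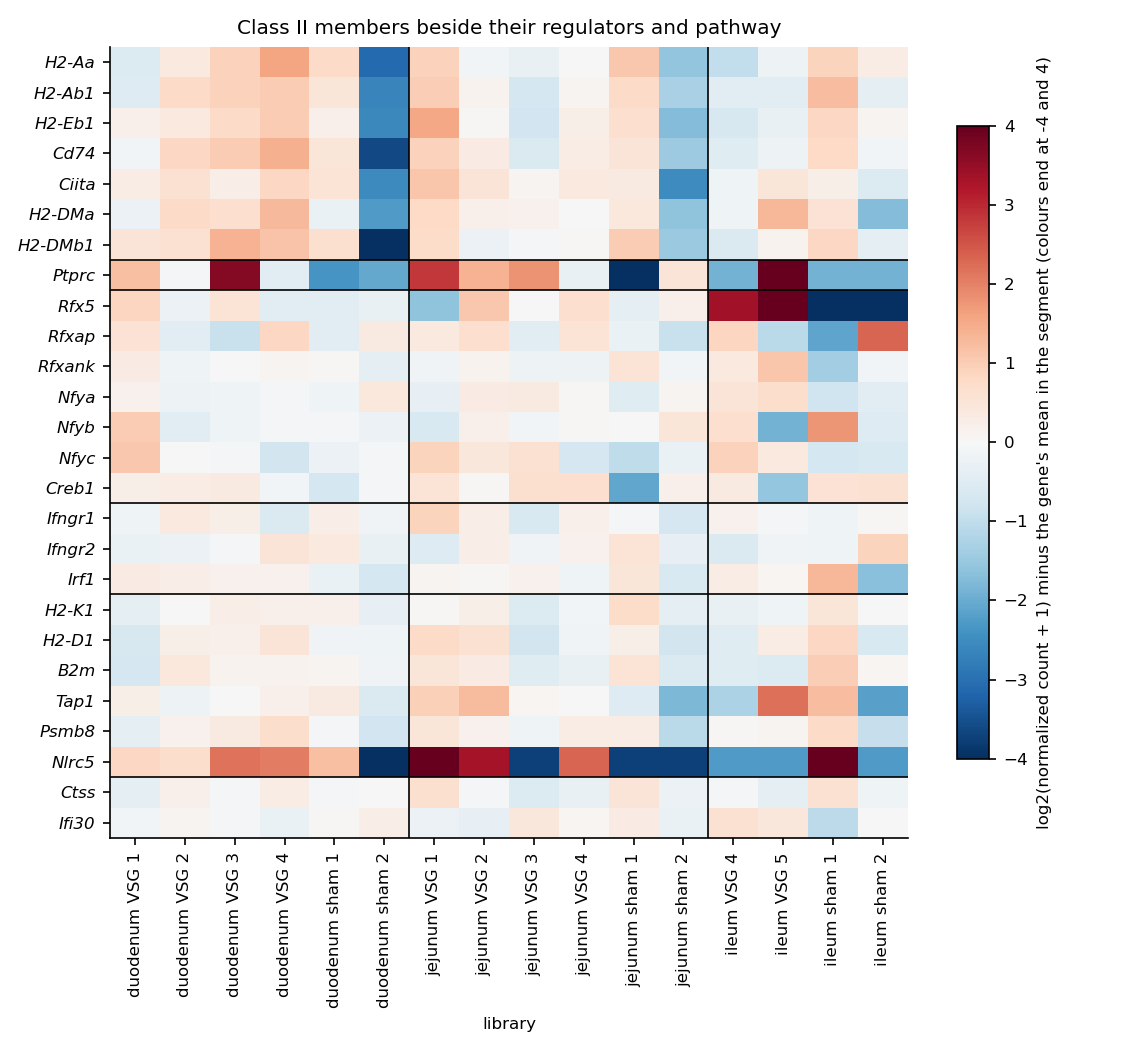
Log2 normalized counts of 26 genes (rows) in the 16 libraries (columns), each centred on its mean in each segment, with colour for the difference from that mean on the log2 scale, which saturates at 4 in either direction. The 7 MHC class II genes are lowest in sham replicate 2 of the duodenum and jejunum, as is 1 of the 7 transcription complex genes in each of these segments.

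Among 10712 genes with a mean above 50 in each table, those whose centred log2 levels were most like the mean of H2-Aa, H2-Ab1, H2-Eb1 and Cd74 over the 16 libraries were Reg3b (Pearson r = 0.90, Spearman rho = 0.86), 4932438A13Rik (0.86 and 0.81), H2-Q4 (0.84 and 0.83), Mgat4c (0.83 and 0.61) and Nos2 (0.82 and 0.71). Without the duodenal and jejunal libraries of sham replicate 2, the 2 farthest from the median, r was 0.73, 0.76, 0.75, 0.58 and 0.42. Reg3b, an antimicrobial lectin of the gut epithelium, had duodenal values of 76974, 127835, 211564 and 282903 normalized counts after VSG against 92688 and 12032 after sham. H2-Q4, a nonclassical class I gene, was at 3845, 5004, 4742 and 4030.4 against 3857 and 1867. In both, sham replicate 2 is the lowest duodenal library, which their choice by r over these same libraries favours. Of the members outside the mean, H2-DMb1 had r = 0.95 with it, Ciita 0.87 and H2-DMa 0.77, and 0.83, 0.59 and 0.44 without these libraries. The transcription complex genes had r of -0.61 for Nfya, -0.26 for Rfx5, -0.22 for Nfyc, -0.10 for Rfxap, -0.047 for Creb1, -0.031 for Rfxank and 0.029 for Nfyb. Without these libraries r was -0.73, -0.51, -0.53, -0.25, -0.068, -0.37 and 0.065 in the same order. For the class I presentation genes r ran from 0.30 to 0.76, and from 0.18 to 0.79 without these libraries. For endosomal processing it ran from -0.38 to 0.51, and then from -0.61 to 0.80. For the interferon gamma pathway it ran from 0.043 to 0.46, and then from 0.081 to 0.56. Without these libraries the highest class I and processing values exceed the 0.76 of 4932438A13Rik, so the ranking depends on them. All of these points share libraries and depth, and r is given as a description with no test.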

How the data were processed

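RNA-Seq of 16 libraries was used. Reads were mapped by the authors with STAR 2.5.3a (mm10) and quantified with Salmon 0.6.0, and the deposited signal values are counts per gene that DESeq2 normalized within each segment. They left out libraries with low mapping. They also deposited tables with log2 fold changes, standard errors, p-values and adjusted p-values per segment, which were not used here. Low values came out as whole reads (within 5% of a read) in 86.9% to 96.7% of cases over all genes, so no count model was fitted.

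Each segment was tested separately on log2(normalized count + 1), over all genes with a mean above 10, with limma 3.58.1 (trend, R 4.3.3) and Benjamini-Hochberg adjustment. A fold change on this scale understates that of low genes. The thresholds for a call are given with the first count of calls and follow the study. The fit was first tested on simulated data. Values given as CPM here are the deposited signal rescaled per library, not raw CPM. Exact permutation tests were two-sided. Of 48440 identifiers, 48058 matched GENCODE M21, whose longest coding transcript gave lengths. The members and gene lists were chosen with earlier results of these data known. Some genes of the lists are not reported here. Genes named are the members, Ptprc, Lgr5, class II chains, the transcription complex and the 5 most like the members. Of the 3 most abundant genes of each list only some are named. Epcam, Alpi, Tap1, Cd40, Cd86, Ifng and the immune markers named as at 0 or as reaching 50 normalized counts belong to the lists. They were named after their values were seen. Alternatives were other pseudocounts, filters and scalings, limma without trend, a replicate block, and single libraries left out in turn. Tables and figures were made in Python 3.11.15 (scipy 1.17.1, numpy 2.4.6, matplotlib 3.10.9, pandas 2.3.3).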

Additional observations from a re-analysis of the deposited data

Results flagged for a closer look

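Of 18 groups of 4 libraries examined, 3 had 1 library whose gap to its neighbour exceeded Dixon's 95% critical value as a share of the group's range; chance gives this in about 1 of 20 groups. Ptprc in the duodenum was at 1534 normalized counts in VSG replicate 3 and at 87 to 276 in the other VSG libraries, a ratio of 0.870. H2-Aa in the jejunum was at 12154 in VSG replicate 1 and at 5276 to 6448 in the others, a ratio of 0.830. Lgr5 in the jejunum was at 1661 in VSG replicate 3 and at 426 to 630.3 in the others, a ratio of 0.835.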

How the results depend on the processing

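Other pseudocounts, filters, scalings and limma without trend left the direction and call of each member as reported, while the members with an unadjusted p under 0.05 went from 4, 0 and 1 in duodenum, jejunum and ileum to 1, 0 and 0 without trend and to 6, 1 and 1 with equal totals. Exceptions concerned Ptprc, whose jejunal minus duodenal difference, 0.99, was -0.29 with a pseudocount of 10 and -0.79 after quantile normalization, and the promoter letters, with 2 genes in place of 1 when 1 mismatch was allowed in the X box and 2 in place of 4 for CTGATTGG in place of CCAAT. The causes were not tested. Leaving out 1 library moved the duodenal members called from 0 to 4 and their median log2 fold change from 0.28 to 3.17, the jejunal median from -0.41 to 1.70 and the ileal one from -1.13 to -0.10. Ranges that cross 0 were, in the duodenum, -0.19 to 3.70 (H2-Aa) and -0.045 to 3.03 (Ciita), and in the jejunum -0.94 to 1.70 (H2-Aa), -0.62 to 1.44 (H2-Ab1), -0.41 to 2.00 (H2-Eb1), -0.26 to 1.69 (Cd74), -0.11 to 1.89 (H2-DMa) and -0.91 to 1.59 (H2-DMb1). In the ileum they were -0.072 to 0.71 (Ciita), -0.000157 to 2.31 (H2-DMa) and -1.06 to 0.17 (H2-DMb1), and for the jejunal minus duodenal difference -0.15 to 0.27 (Ciita) and -2.22 to 4.19 (Ptprc). Calls over all genes went from 4, 2 and 0 in duodenum, jejunum and ileum to 43, 61 and 463 without trend, to 259 and 47 without duodenal sham replicate 1 and 2, and to 2710 without jejunal sham replicate 2. Scaling each library to the same total moved the median of all genes to 0.090, 0.34 and 0.35, and the members' to 1.85, 0.94 and -0.58. VSG and sham replicates with the same number are different mice, their deviations had r of -0.049 to 0.054, and with the replicate block the members' medians were 1.47 and 1.10, with 0 called.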

Other observations

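Icosl, a ligand of T cell costimulation, and Nlrc5, the transactivator of class I genes, were chosen after their values were seen. Icosl was at 184, 628, 615 and 386 normalized counts in duodenal VSG libraries and at 740.2 and 111 in sham libraries, and in the ileum at 425 and 151 against 0 in both sham libraries. Nlrc5 was at 216, 201, 552 and 506 after VSG and at 279 and 0 after sham in the duodenum, and in the ileum at 0 in both VSG libraries and at 553 and 0 after sham. Lcp1, an actin bundling protein of leukocytes that epithelial cells can also express, was at 2980.5 and 1589 in jejunal sham libraries and at 294, 212, 443 and 408 after VSG, and Ptprc in the same libraries was at 0 and 106 against 538, 196, 259.6 and 60.3.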
